A study of Mus musculus with 9 samples.

Results

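The genes described here are 10 markers of dentate granule cells, namely Prox1, Glis3, C1ql2, Stxbp6, Calb1, Trpc6, Lct, Tdo2, Dsp and Dock10. They were found by symbol among the 18275 genes of the deposited table, and each symbol matched 1 gene. RNA from the hippocampus of male mice on the C57BL/6N strain, 11 to 15 weeks old, had been sequenced in 9 libraries, 1 per mouse. Nestin;BrafKE/+ mice (n = 4) carried 1 Braf allele with the K499E mutation, which makes the BRAF kinase more active and is switched on by the Nestin-Cre transgene, and Braf+/+ mice (n = 5) were wild type. No other allele or agent is named for either group. Nestin-Cre acts in neural stem cells from embryonic stages, so that both the neurons and the glia descended from them can carry the mutant allele. The sources used here do not give the share of cells that carried it. They also do not state whether the Braf+/+ mice carried the transgene. The question was whether the markers shifted together or gene by gene. A changed share of granule cells would shift all of them alike only if no other cells made them, which was not tested.

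Granule cells are the principal excitatory neurons of the dentate gyrus, the entrance of the hippocampus. They are among the few neurons still produced in the adult brain, and their axons, the mossy fibres, carry signals to hilar mossy cells and to CA3 pyramidal cells. The homeobox factor Prox1 is needed to acquire and hold their identity, and mature granule cells are filled with the calcium-binding protein calbindin, the product of Calb1. ERK, the kinase at the end of the pathway that BRAF drives, couples activity in these neurons to transcription.

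Values are normalised counts as the authors deposited them, after adjustment for batches, and the library totals ran from 19551312 to 20091532. The number of sequenced reads behind a value is unknown, so the spread between libraries is the only measure of precision. That spread was measured after the adjustment, which can narrow it, so SDs and gaps between groups may look clearer than before it. The library names in the labels carry 4 prefixes. They were grouped here into 3 series, A, B and C, where A merges prefixes that an alternative fit kept apart. Mutant replicate 1 and control replicates 1, 2 and 3 make up series A. Mutant replicates 2 and 3 and control replicate 4 make up series B, and mutant replicate 4 and control replicate 5 make up series C. The genotypes were compared with limma on log2(value + 1), with genotype and series as terms, and p-values were adjusted over the 16196 genes whose mean value reached 10. A log2 fold change is the fitted difference Nestin;BrafKE/+ minus Braf+/+ on that scale. Two-sided exact permutation tests of single genes exchanged the group labels within series (24 assignments, smallest possible p = 0.0417) or among all libraries (smallest possible p = 0.00794). These p-values were not adjusted over genes. Genes whose mutant and control values are fully apart, 15.7% of all genes tested, reach or come near the smallest p, so it restates that separation. For markers whose groups overlapped, the exact permutation p within series ran from 0.167 (Dock10) to 0.833 (C1ql2 and Tdo2). The K499E mutation replaces 1 residue, so the level of Braf does not check the labels.

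The markers did not move as 1 block. Stxbp6, Lct and Dsp fell in Nestin;BrafKE/+ hippocampus, to 0.751, 0.763 and 0.584 of the Braf+/+ level, while Calb1 rose to 1.35 times that level. No difference between genotypes was detected for Prox1, a factor needed for granule cell identity. Of the 10 genes, all of which passed the filter on low values, 4 had an adjusted p under 0.05, 3 lower and 1 higher. Over all genes tested, 2.88% passed, with 1.36% lower and 1.52% higher. With mutant replicate 1 left out, the limma count of markers was 0, with 5 at an unadjusted p under 0.05. With control replicate 4 left out it was also 0, with 4 at an unadjusted p under 0.05, and with mutant replicate 3 left out it was 2. Mutant replicate 1 is the only mutant of series A and control replicate 4 the only control of series B. Leaving out either removes the whole series from the genotype comparison. Mutant and control values were fully apart for 5 of the 10 markers, and over all genes tested this share was 15.7%. The median log2 fold change of the 10 was -0.08, against 0.00 for all genes, and the median of its absolute value was 0.18 against 0.12. In bulk tissue, fewer cells of a type and less RNA per cell cannot be told apart.

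**Figure D1:**
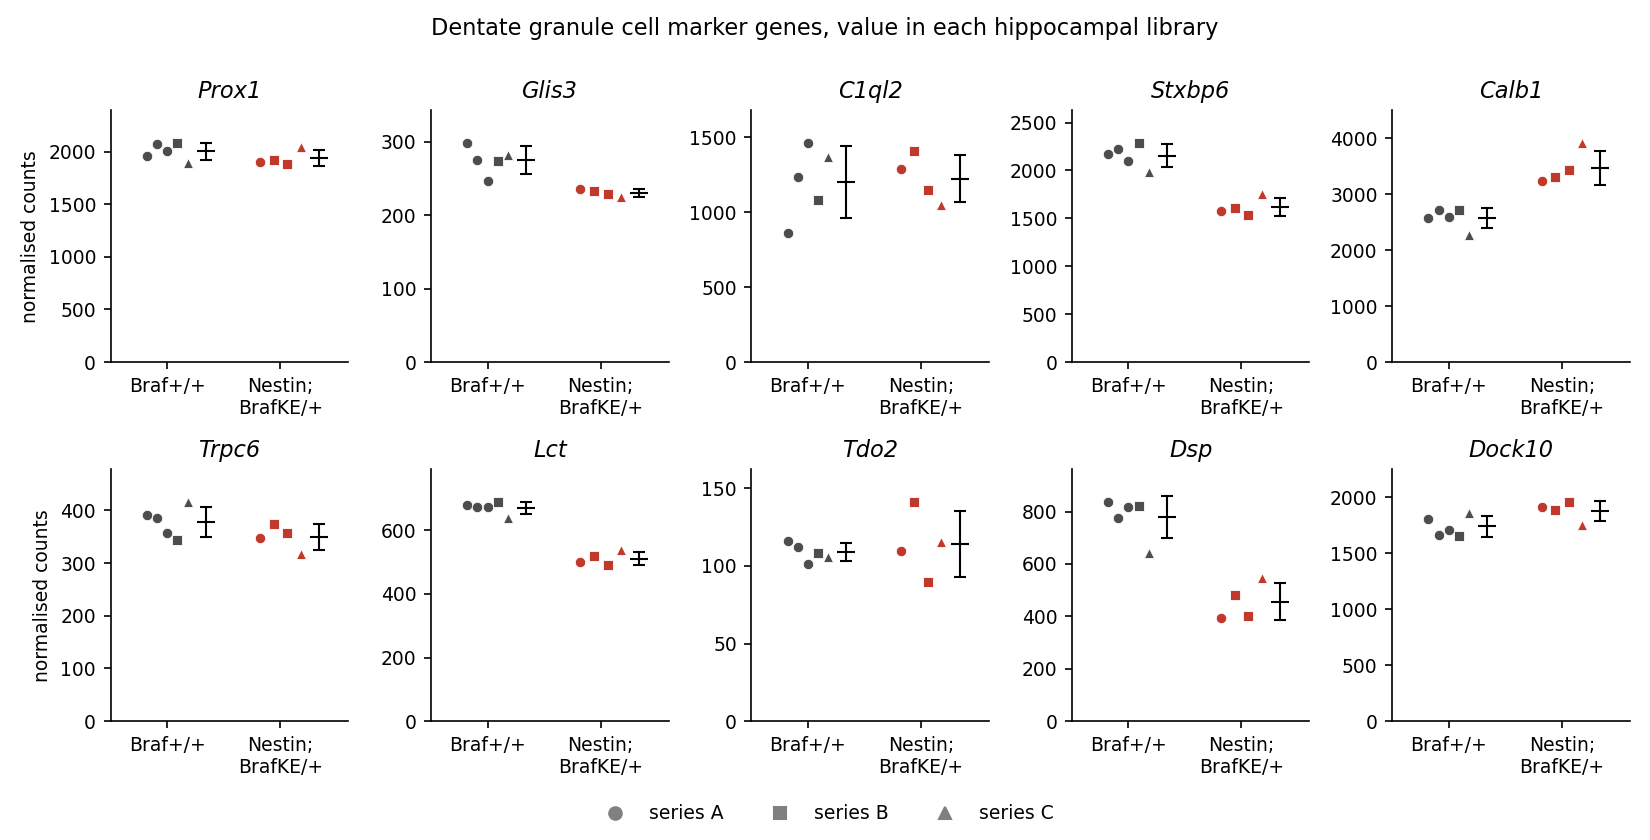
Normalised counts of the 10 marker genes in each library, with Braf+/+ in grey, Nestin;BrafKE/+ in red, the symbol giving the series of library names and the bars the mean ± SD (n = 5 and n = 4). The red points lie below all grey points for Glis3, Stxbp6, Lct and Dsp, above them for Calb1, and overlap with them for the other 5 genes, though 3 of the 4 red points of Dock10 lie above all grey points.

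All 10 genes were detected in every library, down to 89.9 normalised counts for Tdo2 in Nestin;BrafKE/+ replicate 3, so transcripts of all these markers were present. Levels were compared between genes per kilobase of merged exons. In Braf+/+ libraries C1ql2 was the highest at 598 ± 118 per kb (SD, n = 5), followed by Calb1 (363 ± 25.2), Stxbp6 (318 ± 17.3) and Prox1 (223 ± 8.82). Lct (105 ± 2.99), Dock10 (92.5 ± 4.88), Dsp (80.2 ± 8.19) and Trpc6 (50.1 ± 3.76) were intermediate, and Tdo2 (27.0 ± 1.39) and Glis3 (23.6 ± 1.62) were the lowest. Of neighbours in this order, only Dock10 and Dsp had overlapping ranges of mean ± SD. In Nestin;BrafKE/+ the order was the same except that Dock10 (99.9 ± 4.77 per kb, SD, n = 4) stood above Lct (79.8 ± 3.30). There the ranges of mean ± SD overlapped for Dsp (47.0 ± 7.36) and Trpc6 (46.2 ± 3.19) and for C1ql2 (609 ± 78.0) and Calb1 (490 ± 42.9).

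The transcription factors are the genes closest to granule cell identity. Prox1 (ENSMUSG00000010175, chromosome 1, 189850232 to 189904637 in GRCm39) had 1903, 1918, 1881 and 2045 normalised counts in Nestin;BrafKE/+ replicates 1 to 4, and 1954, 2075, 2006, 2080 and 1896 in Braf+/+ replicates 1 to 5. The groups overlapped, with the highest mutant library above 3 of the 5 controls. The means were 1937 ± 73.6 (SD, n = 4) and 2002 ± 79.1 (SD, n = 5), and the log2 fold change was -0.05 (SE 0.06, limma adjusted p = 0.692). Its 95% interval, -0.17 to 0.08, does not reach a fall of the size fitted for Stxbp6, Lct or Dsp. Series A, B and C gave differences of -0.08, -0.13 and 0.11. The part of other cell types in the level of Prox1 in bulk tissue was not tested.

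Glis3 (ENSMUSG00000052942, chromosome 19, 28236251 to 28657667), a zinc finger transcription factor of the Krüppel type, had 236, 232, 229 and 224 normalised counts in the mutants and 298, 275, 246, 274 and 282 in the controls. All mutant libraries were below all controls, and the 4 mutant values lay within a narrow band. The log2 fold change was -0.25 (SE 0.10), with differences of -0.21, -0.25 and -0.33 in series A, B and C. This difference did not pass over all genes (limma adjusted p = 0.192, unadjusted p = 0.0239), and the exact permutation p was 0.0417 within series and 0.0159 among all libraries.

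C1ql2 and Stxbp6 belong to the synapse. C1ql2 (ENSMUSG00000036907, chromosome 1, 120268300 to 120270903) encodes a secreted C1q-like protein that mossy fibres release and that organises kainate receptors at their synapses. It had 1291, 1406, 1149 and 1049 normalised counts in the mutants and 862, 1233, 1461, 1084 and 1372 in the controls. The mutant values all fell inside the control range, which was wide, with a coefficient of variation of 19.8%. The log2 fold change was 0.04 (SE 0.16, 95% interval -0.31 to 0.39, limma adjusted p = 0.925). The interval is wide enough to hold a change in either direction.

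Stxbp6 (ENSMUSG00000046314, chromosome 12, 44899267 to 45146587) encodes amisyn, a protein that binds SNARE complexes and regulates vesicle fusion. The mutant libraries had 1579, 1604, 1530 and 1753 normalised counts and the controls 2172, 2228, 2099, 2285 and 1984. Every mutant library lay below every control, and in both groups the library of series C was closest to the other group. The means were 1617 ± 95.8 (SD, n = 4) and 2154 ± 117 (SD, n = 5), and Stxbp6 fell by 0.41 on the log2 scale (SE 0.07, limma adjusted p = 0.0104). Series A, B and C gave differences of -0.46, -0.54 and -0.18. The exact permutation p was 0.0417 within series and 0.00794 among all libraries. Leaving out mutant replicate 1 gave an adjusted p of 0.0910 and leaving out control replicate 4 one of 0.0822, which ended the call.

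Calb1 and Trpc6 handle calcium. Calb1 (ENSMUSG00000028222, chromosome 4, 15881155 to 15908085) encodes calbindin, a cytosolic calcium buffer that marks mature granule cells and is also made by CA1 pyramidal cells and interneurons. It had 3238, 3305, 3440 and 3912 normalised counts in the mutants and 2570, 2711, 2595, 2713 and 2276 in the controls. All mutant libraries were above all controls, and the series C pair held both the highest mutant and the lowest control value. The means were 3474 ± 304 (SD, n = 4) and 2573 ± 178 (SD, n = 5), and Calb1 rose by 0.43 on the log2 scale (SE 0.08, limma adjusted p = 0.0178). In series A, B and C it was 0.30, 0.31 and 0.78, and the exact permutation p was 0.0417 within series and 0.00794 among all libraries. The call ended when mutant replicate 1 (adjusted p = 0.0662), mutant replicate 3 (0.0523) or control replicate 4 (0.0553) was left out.

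Trpc6 (ENSMUSG00000031997, chromosome 9, 8492905 to 8682359) encodes a cation channel opened by diacylglycerol. It had 348, 375, 357 and 317 normalised counts in the mutants and 390, 386, 357, 343 and 415 in the controls, and the groups overlapped. The log2 fold change was -0.12 (SE 0.10, limma adjusted p = 0.564), and its sign differed between series, at -0.12 in A, 0.09 in B and -0.39 in C.

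Lct and Tdo2 encode enzymes whose transcripts mark granule cells in the mouse hippocampus. Lct (ENSMUSG00000026354, chromosome 1, 128212493 to 128256055), which encodes lactase, had 499, 520, 489 and 536 normalised counts in the mutants and 679, 672, 673, 688 and 638 in the controls. The groups were wide apart beside their spread, with a coefficient of variation of 4.13% in the mutants and 2.86% in the controls. The means were 511 ± 21.1 (SD, n = 4) and 670 ± 19.1 (SD, n = 5), and Lct fell by 0.39 on the log2 scale (SE 0.07, limma adjusted p = 0.0161). Series A, B and C gave differences of -0.43, -0.45 and -0.25. Exact permutation gave p = 0.0417 within series and p = 0.00794 among all libraries. The call ended when mutant replicate 1 (adjusted p = 0.118), mutant replicate 3 (0.0515) or control replicate 4 (0.0982) was left out.

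Tdo2 (ENSMUSG00000028011, chromosome 3, 81864248 to 81883509) encodes tryptophan 2,3-dioxygenase, which opens the ring of tryptophan in the kynurenine pathway. It had 109, 141, 89.9 and 116 normalised counts in the mutants and 116, 112, 102, 108 and 106 in the controls. The mutants scattered on both sides of the controls, and their SD of 21.1 compared with 5.61 in the controls. The log2 fold change was 0.05 (SE 0.16, 95% interval -0.30 to 0.40, limma adjusted p = 0.905). Tdo2 overlaps Ctso, which lies on the opposite strand and had a mean of 792.6 normalised counts.

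Dsp and Dock10 act on cell contacts and shape. Dsp (ENSMUSG00000054889, chromosome 13, 38335230 to 38382553) encodes desmoplakin, which ties intermediate filaments to desmosomes in epithelia and heart and is a marker of granule cells in the hippocampus. It had 396, 480, 402 and 546 normalised counts in the mutants and 836, 777, 817, 820 and 642 in the controls. The highest mutant library was below the lowest control, and both of these were in series C. The means were 456 ± 71.3 (SD, n = 4) and 778 ± 79.4 (SD, n = 5), and Dsp fell by 0.78 on the log2 scale (SE 0.12, 95% interval -1.05 to -0.50, limma adjusted p = 0.0106). Series A, B and C gave differences of -1.03, -0.90 and -0.23. Exact permutation gave p = 0.0417 within series and p = 0.00794 among all libraries. Leaving out mutant replicate 1 gave an adjusted p of 0.104 and leaving out control replicate 4 one of 0.0917, which ended the call.

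Dock10 (ENSMUSG00000038608, chromosome 1, 80478790 to 80736244) encodes an exchange factor for the small GTPases Cdc42 and Rac, which shape dendritic spines. It had 1917, 1889, 1956 and 1750 normalised counts in the mutants and 1807, 1664, 1704, 1657 and 1864 in the controls. Of the 4 mutant libraries, 3 were above all controls and the one of series C was not. The log2 fold change was 0.11 (SE 0.06, limma adjusted p = 0.387), at 0.15 in A, 0.21 in B and -0.09 in C.

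**Figure D2:**
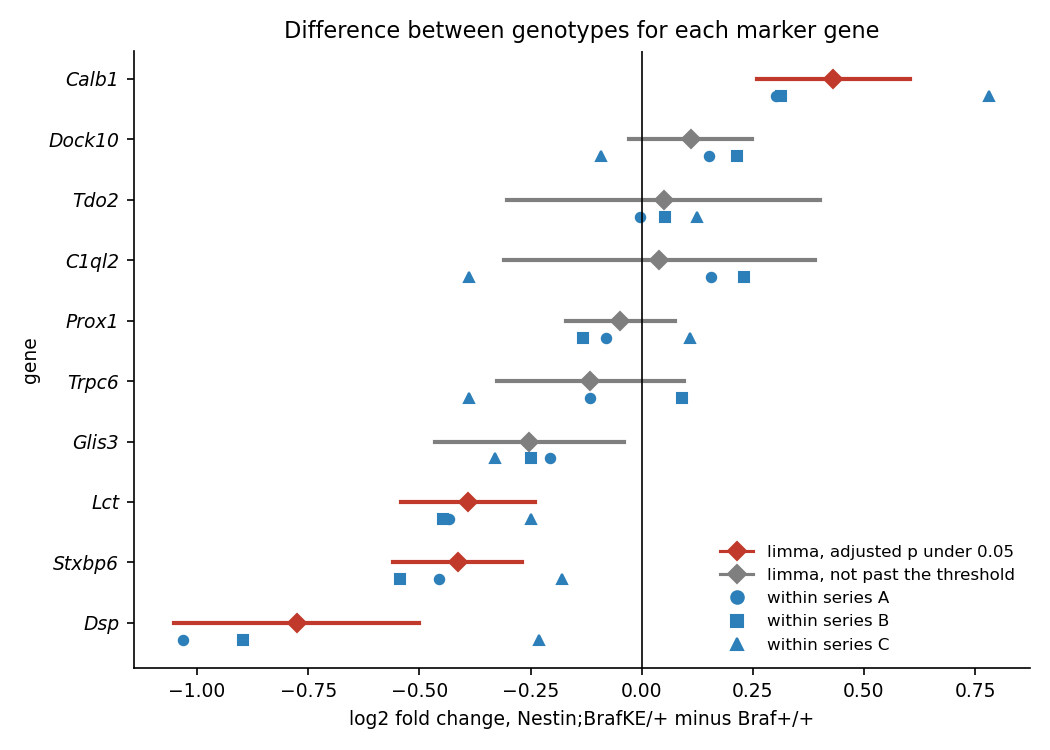
Log2 fold change of each marker gene (Nestin;BrafKE/+ minus Braf+/+, x axis) from limma, with its 95% interval, and in blue the difference within each series of library names. Calb1 at 0.43 and Dsp at -0.78 mark the ends of the range, and the series C point of Calb1, Stxbp6, Lct and Dsp lies further from the points of series A and B than those do from each other.

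Of the 4 markers past the threshold, each kept its sign in all 3 series, but the size differed. Series C, with 1 library per group, gave the smallest fall of Stxbp6, Lct and Dsp and the largest rise of Calb1. With genotype by series as an interaction term, none of the 10 genes had a difference between series past the threshold (limma, 5 of 16196 genes did). The unadjusted p was 0.00525 for Calb1 (adjusted 0.456), 0.00940 for Dsp (adjusted 0.467) and over 0.05 for the other 8 genes.

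The mean log2 level of the 10 genes, each centred on its mean over all libraries, was -0.10, -0.01, -0.14 and -0.05 in the mutants and 0.06, 0.09, 0.06, 0.06 and 0.04 in the controls. The mutant values were all lower, by 0.14 on average, and single genes were apart in this way for 15.7% of all genes tested. This mean includes the falls of Dsp (-0.78), Stxbp6 (-0.41) and Lct (-0.39) and the rise of Calb1 (0.43). The median log2 fold change of the 10 was -0.08. The log2 fold changes of the single genes ran from -0.78 for Dsp to 0.43 for Calb1, with 6 below 0 and 4 above. The part of a changed share of granule cells in the lower mean was not tested.

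The genes were also set against each other within a library. Each gene was divided by Prox1 of the same library, a denominator chosen after the values were seen. The ratio of Stxbp6 to Prox1 ran from 0.814 to 0.857 in the mutants and from 1.05 to 1.11 in the controls. For Lct the ratio ran from 0.260 to 0.271 against 0.324 to 0.347, and for Dsp from 0.208 to 0.267 against 0.338 to 0.428. Calb1 moved the other way, from 1.20 to 1.32 in the controls to 1.70 to 1.91 in the mutants. Mutant and control ratios were apart for these 4 genes, which were apart before the division too, and the ratios largely restate those differences because Prox1 was picked after no difference had been detected for it. The remaining ratios overlapped, that of Glis3 included (0.110 to 0.124 against 0.123 to 0.152).

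**Figure D3:**
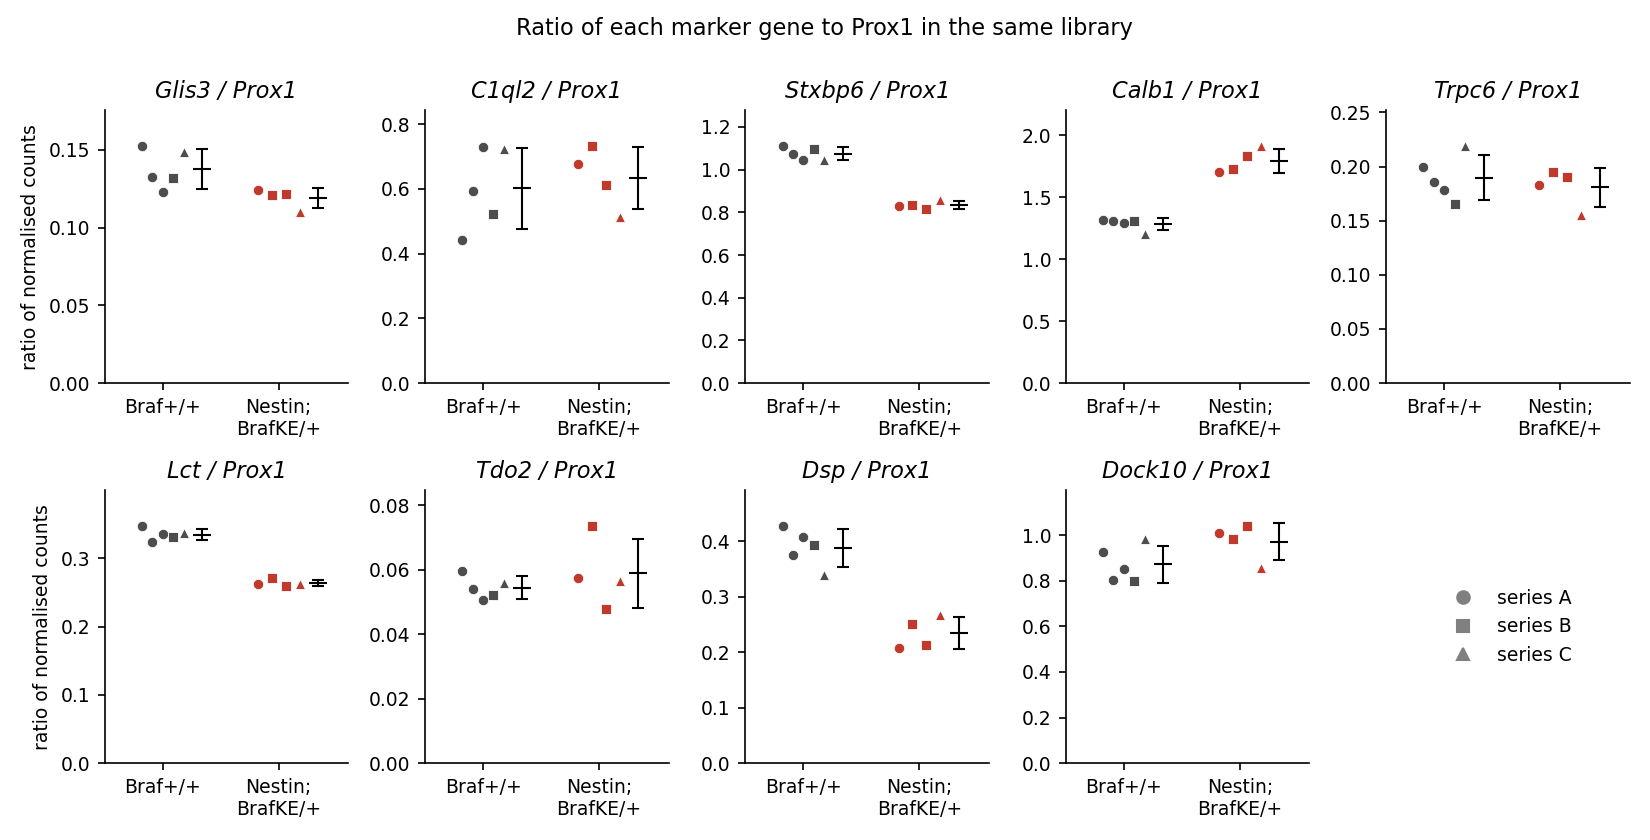
Ratio of each marker gene to Prox1 in the same library, with Braf+/+ in grey, Nestin;BrafKE/+ in red, symbols for the series and bars for the mean ± SD (n = 5 and n = 4). Red and grey points are apart for Stxbp6, Lct, Dsp and Calb1, and the Lct ratio spans 0.260 to 0.271 in the mutants.

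The ratio of Calb1 to Dsp, both counted as granule cell genes, was 8.19, 6.89, 8.55 and 7.16 in the mutants. It was 3.08, 3.49, 3.18, 3.31 and 3.55 in the controls. The lowest mutant ratio was thus well above the highest control ratio, with means of 7.70 ± 0.798 (SD, n = 4) and 3.32 ± 0.201 (SD, n = 5). Since these are the genes at the ends of the range, their ratio is a description of that range.

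The DNA just upstream of the 3 markers that fell past the threshold is shown. They were picked by that result, and Glis3, also lower in all mutant libraries but not past the threshold, is not shown. The 250 bases before the start site, 5′ to 3′ on the gene's strand, were taken from RefSeq on GRCm38.p6, which held entries for 9 of the 10 genes and not for Calb1. Capitals mark CANNTG, the E-box bound by basic helix-loop-helix factors, a motif whose letters read the same on both strands. The windows are chr13:38151044-38151293 (plus strand) for Dsp, chr1:128328319-128328568 (minus strand) for Lct and chr12:45074484-45074733 (minus strand) for Stxbp6.
Dsp: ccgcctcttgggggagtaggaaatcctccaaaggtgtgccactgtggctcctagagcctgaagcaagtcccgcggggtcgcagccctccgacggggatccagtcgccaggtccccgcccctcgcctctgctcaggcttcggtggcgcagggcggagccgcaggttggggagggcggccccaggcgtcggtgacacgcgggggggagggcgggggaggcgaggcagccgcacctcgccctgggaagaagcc
Lct: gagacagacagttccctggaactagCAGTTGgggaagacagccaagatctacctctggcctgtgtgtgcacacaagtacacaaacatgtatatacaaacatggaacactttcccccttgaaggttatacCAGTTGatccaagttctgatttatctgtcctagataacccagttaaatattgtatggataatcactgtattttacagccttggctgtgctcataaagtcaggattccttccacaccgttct
Stxbp6: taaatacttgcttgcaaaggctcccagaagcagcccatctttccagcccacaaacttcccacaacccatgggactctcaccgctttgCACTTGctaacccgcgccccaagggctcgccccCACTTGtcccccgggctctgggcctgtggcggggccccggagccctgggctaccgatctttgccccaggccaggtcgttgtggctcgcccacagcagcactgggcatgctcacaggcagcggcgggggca

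The windows have little in common. That of Dsp is 72.4% G and C and holds no E-box, that of Lct is 42.8% G and C with 2, and that of Stxbp6 is 65.2% G and C with 2. Over the 32851 promoters of the table, the median G and C content was 52.4% and 66.2% held CANNTG. The motifs CCGGAA (ETS factors), TGANTCA (AP-1) and TGACGT (CREB and ATF), which are bound by factors downstream of ERK, were searched on both strands and were found in none of the windows of the 9 genes, against 12.03%, 6.75% and 6.47% of all promoters. A motif match, or its absence from so short a window, says nothing of whether a factor binds.

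Another 16 genes known from granule cells were examined beside the markers. They were listed with earlier results of these data known, so their counts are not an independent comparison. All 16 were tested, 13 had a log2 fold change below 0 and 3 above, and the median was -0.12. Of these, 4 fell and 1 rose past the threshold, where 1.36% and 1.52% of all genes tested did so. With mutant replicate 1 left out 2 of the 16 passed. The largest fall was that of Plk5, a polo-like kinase of postmitotic neurons, from 371 ± 66.7 (SD, n = 5) to 61.4 ± 12.9 normalised counts (SD, n = 4), which is -2.58 on the log2 scale (SE 0.19, limma adjusted p = 0.000325). Every mutant library was below 73 and every control above 303. Ntf3, the neurotrophin NT-3, had 23.1 to 37.9 in the mutants and 97.1 to 141 in the controls (log2 fold change -1.82, adjusted p = 0.00261). Pdyn, which encodes prodynorphin, the opioid precursor stored in mossy fibres, had 86.3 to 105 against 170 to 210 (-0.93, adjusted p = 0.00548, a call lost in 1 of 9 fits that left out 1 library).

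Slc30a3, the transporter that loads zinc into mossy fibre vesicles, fell by 0.50 on the log2 scale (adjusted p = 0.0429), a call lost in 6 of 9 fits that left out 1 library. Kcnip3, a calcium sensor that binds potassium channels, rose by 0.49 (adjusted p = 0.00565, a call lost in 1 of these fits), from 1389 to 1608 in the controls to 2032 to 2321 normalised counts in the mutants. Among the other 11, none passed. The lowest log2 fold changes were those of Fam163b (-0.43, adjusted p = 0.102) and Smad3 (-0.23, 0.0921), and the highest those of C1ql3 (0.19, 0.103) and Pdzd2 (0.07, 0.715).

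**Figure D4:**
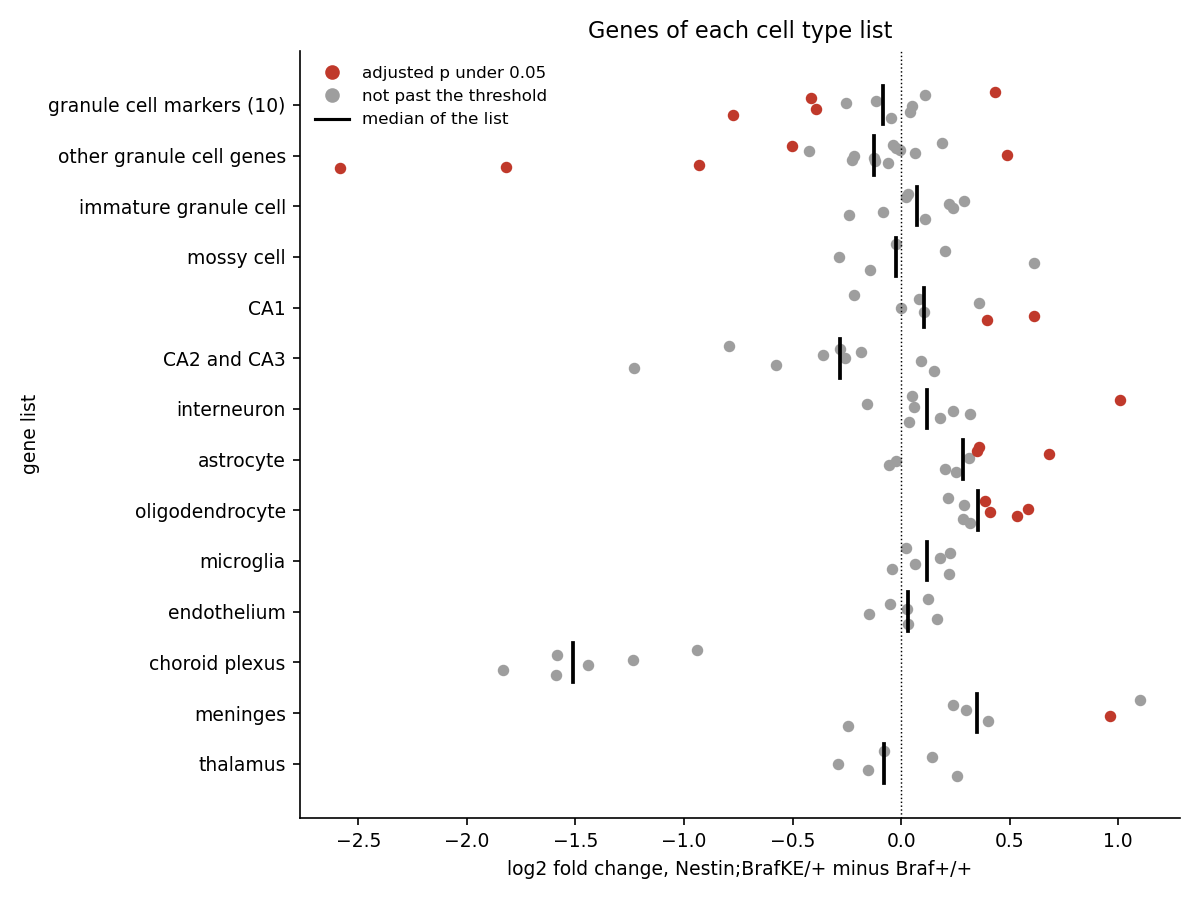
Log2 fold change (Nestin;BrafKE/+ minus Braf+/+, x axis) of each gene of 14 cell type lists (y axis), in red where the limma adjusted p was under 0.05, with the median of each list as a black bar. The granule cell lists span both sides of 0, from -2.58 for Plk5 to 0.49 for Kcnip3, and all 8 oligodendrocyte genes lie above 0.

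Markers of the neighbouring neurons were read beside the granule cell genes, in the same fit, where 2.88% of all genes tested passed. Of 8 genes of immature granule cells, among them Sox11 (-0.24) and Eomes (0.29), none passed in limma and 1 had an unadjusted p under 0.05. Of 6 mossy cell genes 5 were tested, from Calcrl (-0.29) to Drd2 (0.61), with none past the threshold and none with an unadjusted p under 0.05. Of 9 genes of CA2 and CA3 none passed, 5 had an unadjusted p under 0.05 and the median was -0.28, from Iyd at -1.23 (adjusted p = 0.0505) to Bok at 0.15. The CA1 list, whose cells also express Calb1, had 6 of 7 genes higher, among them Pou3f1 at only 0.001, and Gpr161 lower (-0.22). Wfs1 (0.61) and Fibcd1 (0.40, a call lost in 3 of 9 fits that left out 1 library) rose past the threshold. They were the only 2 of the list with an unadjusted p under 0.05. The summed level of the CA1 list was 14807 to 15570 in the mutants and 12308 to 13070 in the controls, without overlap. Single genes were apart in this way for 15.7% of all genes tested. The sum includes the genes past the threshold, with mutant and control means of 3635 and 2377 for Wfs1 and of 3937 and 2991 for Fibcd1. Of 8 interneuron genes, which mark another source of Calb1, 7 were higher and Vip was lower (-0.16). The 7 included Gad1 at only 0.04, Lhx6 at 0.05 and Pvalb at 0.06. Npy rose past the threshold (1.01), and 3 of the 8 had an unadjusted p under 0.05. The part of CA1 cells and interneurons in the rise of Calb1 was not tested.

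Glial and border tissue lists were read in the same fit, where 2.88% of all genes tested passed. All 8 oligodendrocyte genes were higher, 4 of them past the threshold, from Opalin (0.22, not past it) to Mobp (0.58, past it), and their summed level was 121699 to 131226 in the mutants and 88547 to 107138 in the controls. Of 8 astrocyte genes 6 were higher and 2 lower (Slc1a2 at -0.06 and Gja1 at -0.03, neither past the threshold), and Gfap (0.68), S100b (0.36) and Aldoc (0.35) rose past the threshold. Neither the 6 microglia nor the 6 endothelium genes passed, and 2 and 0 of them had an unadjusted p under 0.05. Choroid plexus genes, 6 of 6 lower with none past the threshold and 1 with an unadjusted p under 0.05, summed to between 1353 and 24209 in the mutants and between 4440 and 389918 in the controls, a wide range within each group. Of 6 meninges genes, Col1a1 rose past the threshold (0.96), and of 5 thalamus genes none did, nor did any have an unadjusted p under 0.05. Calls of these lists were lost in part of the 9 fits that left out 1 library, those of the oligodendrocyte genes Cldn11 in 3, Mobp in 4, Mog in 5 and Mag in 8. Among astrocyte genes the call of S100b was lost in 5 and those of Gfap and Aldoc in 2 each, and that of Col1a1 in 3. The part of these lists in the marker differences was not tested.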

How the data were processed

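Stranded mRNA libraries of mouse hippocampus (4 Nestin;BrafKE/+ and 5 Braf+/+) were trimmed by the authors with Trim Galore, aligned to GRCm39 with STAR and quantified with Salmon in nf-core/rnaseq 3.2. The deposited values are a signal per gene and library, normalised counts that the authors had adjusted for batches, which are not named, and scaled with DESeq2. They are whole multiples of 1 step per library but are not sequenced reads, so depth is unknown and no count model was fitted. Columns not used numbered 0, and the other samples of the study were not analysed here.

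Genes with a mean of at least 10 were fitted with limma 3.58.1 (lmFit, eBayes with trend) in R 4.3.3 on log2(value + 1), with genotype and series as terms, Benjamini-Hochberg adjustment over 16196 genes and a threshold of 0.05. Intervals are 95% confidence intervals. The steps were tested on simulated data. Python 3.11.15, pandas 2.3.3 and matplotlib 3.10.9 drew the figures. Gene coordinates came from Gencode vM39 (GRCm39), where 99.5% of IDs matched, and promoters from RefSeq (GRCm38.p6).

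The markers, the other lists and the tests were chosen with earlier results of these data known. All 10 markers are named. Of the 16 other granule cell genes, those past the threshold are named and 4 of the rest, and of each further list those past the threshold, or the highest and lowest where more than 3 passed. Genes named from lists in which none passed, and other named genes of the further lists that did not pass, were chosen after their values were seen. Alternatives tried were pseudocounts of 0.5 and 8, a minimum mean of 50 or none, quantile normalisation, median centring, no series term, 4 name prefixes, replicate blocks, array quality weights, robust eBayes, the other 9 markers as a covariate, and leaving out each library. The ratio to Prox1 was added without being planned.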

Additional observations from a re-analysis of the deposited data

How the results depend on the processing

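Of 229 alternative values for the log2 fold changes of the 10 markers, 203 kept their direction and, where a p-value was computed, their side of the threshold. Of the 229, 92 concern the 4 genes past it, of which 77 were kept in this sense and 15 kept only the direction. The ratios to Prox1 are among these values. They were not planned, have no p-value and were judged by direction alone. Leaving out 1 library at a time gave 0 to 4 markers past the threshold, 2 to 6 of the other granule cell genes and 42 to 371 of all genes. Without Nestin;BrafKE/+ replicate 1 or Braf+/+ replicate 4 no marker passed (limma, with 5 and 4 at an unadjusted p under 0.05), and without Nestin;BrafKE/+ replicate 3 the count was 2. The first is the only mutant of series A and the second the only control of series B, so leaving out either removed that series from the comparison. Without Nestin;BrafKE/+ replicate 1 the log2 fold changes were -0.39 for Stxbp6, -0.36 for Lct, -0.61 for Dsp and 0.51 for Calb1. Leaving out either library of series C also removed that series, and both fits gave the same fold changes. Without the series term 2260 genes passed, with 5 markers (Glis3 added, adjusted p = 0.0300) and 8 other granule cell genes. The 4 name prefixes in place of series gave 165 genes and 3 markers (Lct at adjusted p = 0.0519), and array quality weights gave 258 genes and 4 markers. Beyond the loss of a series, the causes of these changes were not tested.

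Replicate numbers were not used to pair the libraries in the main fit. Deviations of same-numbered libraries from their group means correlated at -0.390, -0.0779, 0.0686 and 0.415. So few correlations, with series not removed, cannot settle whether the libraries were paired. With the replicate number as a fixed block, 1405 genes passed, with 4 markers and 8 other granule cell genes, and as a random block 493 genes, 4 markers and 5.

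The mean of the other 9 markers as a covariate, which itself separates the genotypes, left 0 to 19 genes past the threshold over the 10 fits. Stxbp6 was then at -0.33 (adjusted p = 0.492), Lct at -0.30 (0.607), Dsp at -0.68 (0.229) and Calb1 at 0.45 (0.985). Reversed signs were seen only among markers that had not passed. In the covariate fit Prox1 was at 0.027, C1ql2 at -0.32 and Dock10 at -0.042. C1ql2 was at -0.08 with name prefixes, at -0.0092 with array weights and between -0.061 and 0.19 without single libraries, and Tdo2 between -0.043 and 0.14. The planned count model, edgeR, was not run because the deposited whole numbers are not sequenced reads.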
